A study of Solanum lycopersicum with 18 samples.

Results

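The 10 heat stress transcription factor (Hsf) genes of tomato (*Solanum lycopersicum*) described here were chosen by identifier: *HsfA1a* (Solyc08g005170), *HsfA1b* (Solyc03g097120), *HsfA1c* (Solyc08g076590), *HsfA1e* (Solyc06g072750), *HsfA2* (Solyc08g062960), *HsfA3* (Solyc09g009100), *HsfA4a* (Solyc03g006000), *HsfA4c* (Solyc02g072000), *HsfA5* (Solyc12g098520) and *HsfB1* (Solyc02g090820). Over the whole series, peaks were annotated to 11176 genes, and members without a peak are not among these. The deposited gene ontology terms gave DNA-binding transcription factor activity and nucleus for each of them except *HsfA2*, for which the lists held no term.

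Hsfs are the DNA-binding proteins through which plant cells switch on chaperone genes when proteins begin to unfold. They bind heat shock elements in promoters. Class A members carry an activation domain. Class B members lack that domain and act as co-activators or repressors. In tomato, HsfA1a is known as the master regulator that starts the response, and HsfA2 is induced by heat and works together with HsfA1 proteins. N6-methyladenosine (m6A) is a modified base of messenger RNA, placed mostly near the stop codon and in the 3′ untranslated region (UTR), that affects how stable a transcript is and how it is translated.

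The data are m6A-seq peak lists from fruit pericarp. RNA was cut into short fragments, fragments were pulled down with an anti-m6A antibody (IP), and IP and untreated input were sequenced side by side. The groups were fruit of the *Colorless non-ripening* (*Cnr*) epimutant at 42 days post-anthesis (DPA), wild-type (WT) fruit at 42 DPA, when WT fruit reaches the breaker stage, and WT fruit at 39 DPA, the mature green stage. All fruit were of the Ailsa Craig background, and *Cnr* is an epimutant of it whose fruit carries hypermethylated DNA and does not ripen. Each group had 3 replicates, each a pool of at least 30 fruits, so 9 lists came from 18 libraries.

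Each list held between 9246 and 10407 peaks. A peak has a fold enrichment, which is the IP signal at its summit over the background the caller derived from the input. The background is the larger of the local input level and a genome-wide minimum, called the floor here, which lay between 44.6 and 51.1 fragments per library. Where the background is on the floor, the fold enrichment follows the IP signal alone, and the local input may be lower than the value used. *Cnr* replicate 2 stood nearer to the WT lists than the other *Cnr* replicates did. Over the 7836 regions with a peak in all 9 lists, the median fold enrichment was 8.93, 7.33 and 9.43 in *Cnr* replicates 1 to 3, against 6.84, 6.89 and 5.83 at WT 42 DPA and 6.56, 6.56 and 7.28 at WT 39 DPA. *Cnr* replicate 2 was the lowest of its group in 88.4% of these regions. Of the ripening genes used to check fruit age, *RIN*, a ripening regulator, had an input at its peak of 6.55 to 6.68 times the floor in *Cnr* and 7.13 to 8.02 at WT 42 DPA, and was on the floor in the 2 lists of WT 39 DPA that had the peak. For *NR*, an ethylene receptor, it was 4.27 to 4.84 in *Cnr*, 13.2 to 14.1 at WT 42 DPA and 8.69 to 9.12 at WT 39 DPA. *PG2a* had a peak in 1 list of WT 42 DPA, and *E8* and *PSY1* had none.

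Of the 10 genes, 6 had an m6A peak in at least 1 list and 3 had one in all 9 lists. *HsfA1a*, *HsfA1b* and *HsfA1c* carried a peak in every list, and *HsfA1e* in 8 lists, with WT 39 DPA replicate 2 the exception, a pattern of 1 missing WT 39 DPA list that 0.718% of the regions of the series showed. *HsfA4a* carried a peak in the 3 *Cnr* lists and in no WT list. *HsfB1* carried a peak in the 6 WT lists and in *Cnr* replicate 2 only. No list held a peak within *HsfA2*, *HsfA3*, *HsfA4c* or *HsfA5*. A peak was present in all 9 lists for 64.7% of the 12119 regions of the series. Each of those regions has a peak in at least 1 list, so the like count here is 3 of the 6 genes with a peak. Without a peak, neither the IP signal nor the input of a gene can be read from these lists, so a missing peak does not separate an unmethylated transcript from one that was too scarce to be enriched.

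**Figure D1:**
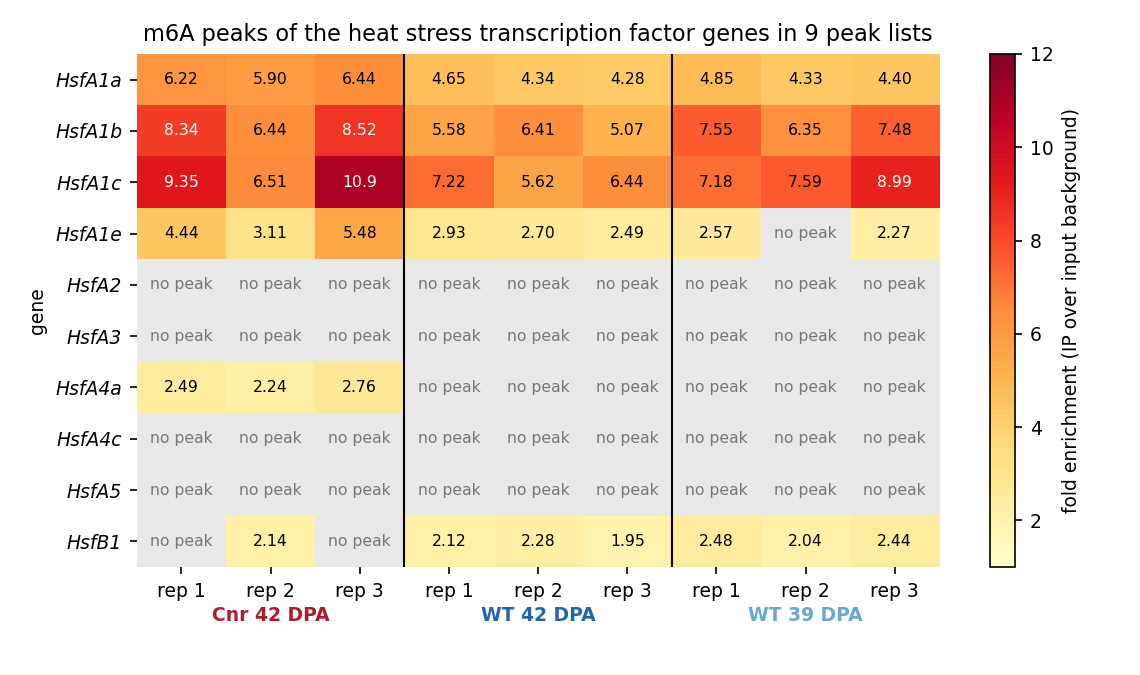
Fold enrichment (IP over input background, colour scale and printed values) of the 10 genes (rows) in each of the 9 peak lists (columns, 3 replicates per group), at the summit that the lists share. The 4 *HsfA1* genes fill nearly all lists, *HsfA4a* appears in the 3 *Cnr* lists only, *HsfB1* in the 6 WT lists and *Cnr* replicate 2, and grey cells are lists with no peak.

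The peaks lay at the 3′ end of the transcripts. Of the 45 peaks, counting 1 per gene and list, 42 were centred on the 3′ UTR and 3, those of *HsfA4a*, on the last exon. They come from 6 genes seen again in up to 9 lists, and are not 45 separate observations. Over all peaks with a gene, 50.1% ± 2.0 (SD, n = 9 lists) were centred on the 3′ UTR and 26.7% ± 0.29 on the last exon, together 76.7%. The *HsfA1b*, *HsfA1c* and *HsfA1e* peaks began and ended within the 3′ UTR in every list that held them, a pattern found for 17.5% ± 1.2 of all peaks with a gene (SD, n = 9 lists). Those of *HsfA1a* and *HsfA4a* ran from the last exon into the 3′ UTR, and those of *HsfB1* from the last exon past the annotated end of the gene.

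Summit positions repeated closely between replicates and groups. The summits of *HsfA1a* lay within 22 bp of each other over 9 lists, those of *HsfA1b* within 30 bp, those of *HsfA1c* within 17 bp, and those of *HsfA1e* within 12 bp over 8 lists. On the SL3.0 assembly the *HsfA1a* peaks covered chromosome 8 from 111423 to 111763, with summits 244 to 266 bp from the 3′ end of the gene, which is annotated from 111313 to 116874 on the minus strand. The *HsfA1b* peaks covered chromosome 3 from 60888250 to 60888638, the *HsfA1e* peaks chromosome 6 from 45011075 to 45011378, and the *HsfB1* peaks chromosome 2 from 52939730 to 52940293. The *HsfA1c* peaks covered chromosome 8 from 60663306 to 60663684.

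The *HsfA1c* peak cannot be assigned to *HsfA1c* alone. In all 9 lists it was also annotated to the neighbouring gene Solyc08g076580, on the plus strand from 60660409 to 60663749, where it ran from the last intron over the last exon into the 3′ UTR and its summit lay 245 to 262 bp from the gene's 3′ end. Between 13.7% and 14.4% of the peaks of a list were annotated to more than 1 gene.

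**Figure D2:**
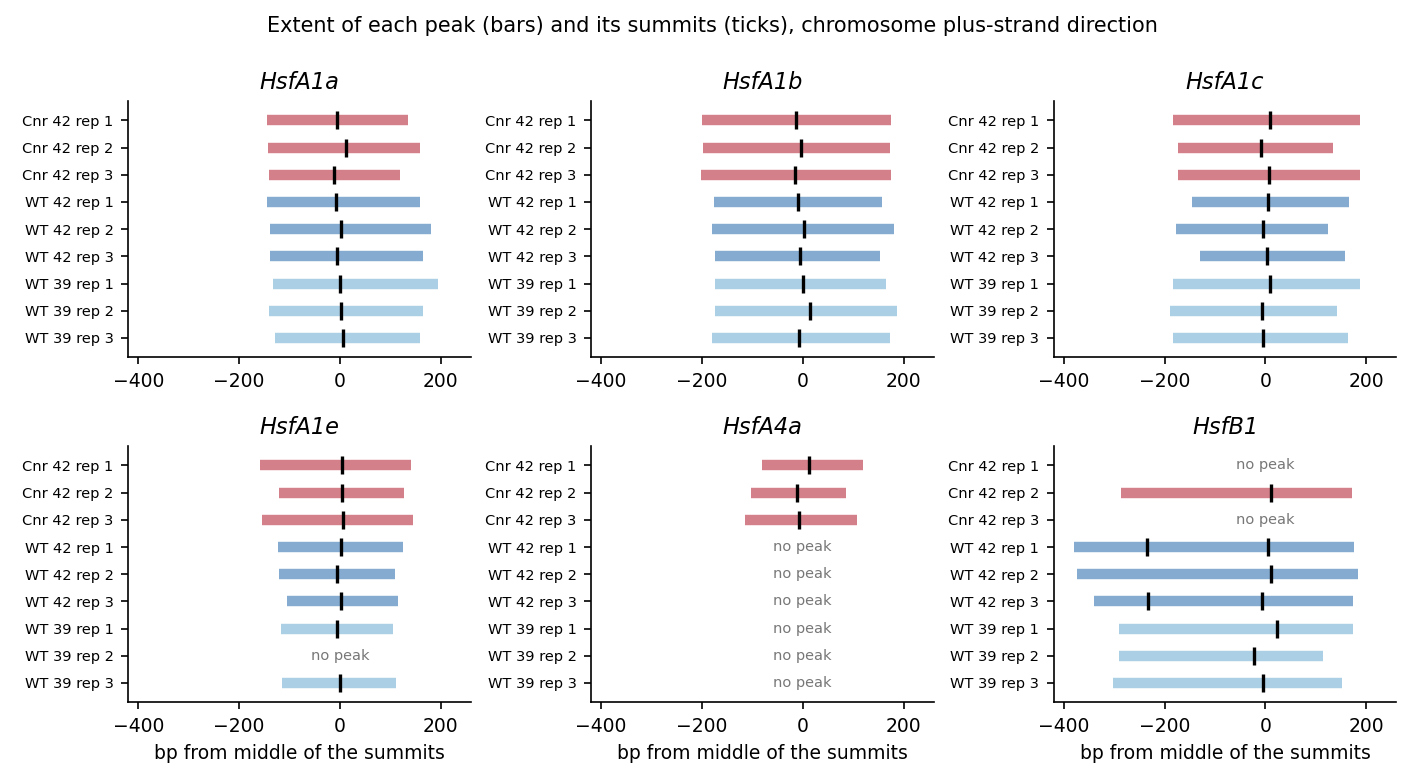
Extent of each member peak (bars) and its summits (black ticks) in the 9 lists (rows), in bp from the middle of the shared summits along the chromosome's plus strand. The summits of the *HsfA1* genes line up within 12 to 30 bp, and the *HsfB1* peak carries a further summit in WT 42 DPA replicates 1 and 3.

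Among the *HsfA1* genes, the subclass that starts the heat response, *HsfA1c* and *HsfA1b* had the highest fold enrichments. *HsfA1a*, the master regulator, was at 6.22, 5.90 and 6.44 in *Cnr*, against 4.65, 4.34 and 4.28 at WT 42 DPA. All 3 *Cnr* values were above all WT 42 DPA values, as in 48.2% of the 8007 tested regions. The 3 lists at WT 39 DPA, with 4.85, 4.33 and 4.40, overlapped those at WT 42 DPA. Its background was on the floor in all 9 lists.

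*HsfA1b* was at 8.34, 6.44 and 8.52 in *Cnr*, against 5.58, 6.41 and 5.07 at WT 42 DPA and 7.55, 6.35 and 7.48 at WT 39 DPA. *Cnr* replicate 2 lay just above the highest WT 42 DPA value and within the range of WT 39 DPA. The shared peak of *HsfA1c* was at 9.35, 6.51 and 10.9 in *Cnr*, against 7.22, 5.62 and 6.44 at WT 42 DPA and 7.18, 7.59 and 8.99 at WT 39 DPA, with *Cnr* replicate 2 inside the range of WT 42 DPA. Its background was on the floor in all 9 lists.

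*HsfA1e* had the lowest enrichment of the 4, at 4.44, 3.11 and 5.48 in *Cnr*, against 2.93, 2.70 and 2.49 at WT 42 DPA, and 2.57 and 2.27 in the 2 lists of WT 39 DPA that held it. All 3 *Cnr* values were above all WT values, with *Cnr* replicate 2 the nearest to them. Against WT 42 DPA alone, 48.2% of the 8007 tested regions showed this. The share against both WT groups was not counted. The background of *HsfA1e* was on the floor in all 8 lists. Its IP number at the summit was 220, 142 and 249 in *Cnr*, 145, 130 and 128 at WT 42 DPA, and 132 and 114 at WT 39 DPA. Ranked by fold enrichment within its list, *HsfA1e* lay at percentiles of 8.16 to 33.7, *HsfA1a* at 35.5 to 49.3, and *HsfA1b* and *HsfA1c* at 48.5 to 72.9.

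In fold enrichment, the order *HsfA1c*, *HsfA1b*, *HsfA1a*, *HsfA1e* held in the 3 *Cnr* lists, with the *HsfA1c* peak the one shared with Solyc08g076580. The means there were 8.93 ± 2.23 for *HsfA1c*, 7.77 ± 1.15 for *HsfA1b*, 6.19 ± 0.27 for *HsfA1a* and 4.34 ± 1.19 for *HsfA1e* (SD, n = 3 each). At WT 42 DPA they were 6.43 ± 0.80, 5.69 ± 0.68, 4.42 ± 0.20 and 2.70 ± 0.22 in the same order of genes (SD, n = 3 each), and the first 2 genes exchanged places in replicate 2. At WT 39 DPA *HsfA1c* averaged 7.92 ± 0.95, *HsfA1b* 7.13 ± 0.67 and *HsfA1a* 4.53 ± 0.28 (SD, n = 3 each), and the first 2 exchanged places in replicate 1. The values of *HsfA1c* and *HsfA1b* overlapped in every group, while *HsfA1a* was below both in all 9 lists and above *HsfA1e* in the 8 lists that held it.

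**Figure D3:**
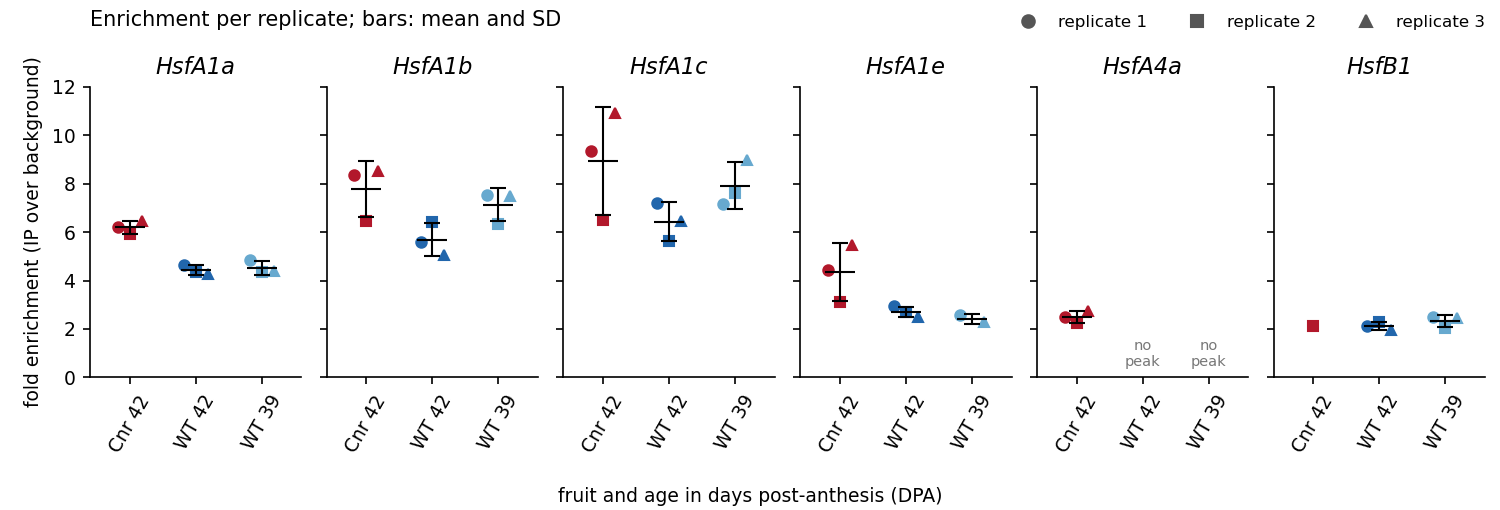
Fold enrichment (linear axis from 0) of the 6 genes with a peak, by group, with 1 symbol per replicate and the mean and SD in black where a group has 2 or more values. The *HsfA1a* and *HsfA1e* values of *Cnr* sit above all their WT values, those of *HsfA1c* overlap, and replicate 2 (square) is the lowest *Cnr* value of each gene with 3 *Cnr* values. Over the 8007 tested regions, 48.2% have all *Cnr* values above all WT 42 DPA values, and the share against both WT groups was not counted.

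The comparison of *Cnr* with WT at 42 DPA asks which m6A sites differ in fruit that fails to ripen. Differences were tested with limma on log2 fold enrichment over the 8007 regions with a peak in all 6 lists, and a region was called at a fold of at least 1.5 and a Benjamini-Hochberg adjusted p under 0.05. The 4 *HsfA1* regions were tested. *HsfA1e* was called higher in *Cnr*, with a log2 fold change of 0.65 (SE 0.17), a fold of 1.57 and an adjusted p of 0.000838. The other *HsfA1* regions were not called, since their fold was under 1.5, with log2 fold changes of 0.48 for *HsfA1a* (limma adjusted p = 0.0137), 0.45 for *HsfA1b* (0.0237) and 0.45 for *HsfA1c* (0.0225). The backgrounds of *HsfA1e*, *HsfA1a* and *HsfA1c* were on the floor in all 6 lists, so their changes followed the IP signal alone. Their input below the floor cannot be read, and a change in transcript abundance there was not tested. Over all regions, 25.2% were called higher and 1.91% lower, 46.5% were higher at an adjusted p under 0.05 with no fold minimum, against 4 of the 4 *HsfA1* regions, and in 48.2% all *Cnr* values were above all WT values, against 3 of the 4. The 1 call among 4 is thus close to the share over all regions. This fit did not pair the lists by replicate number. With that number as a block, the limma adjusted p was 0.00305 for *HsfA1e*, 0.0291 for *HsfA1a*, 0.0452 for *HsfA1b* and 0.0434 for *HsfA1c*. In the block fit, 40.4% of all regions were higher at an adjusted p under 0.05 with no fold minimum.

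These differences have to be read against a shift of the whole data set. The median log2 change of all 8007 regions was 0.36, a fold of 1.28. Relative to that median, *HsfA1e* was higher by 0.29, *HsfA1a* by 0.13, *HsfA1c* by 0.093 and *HsfA1b* by 0.089 on the log2 scale, and their changes stood at percentiles of 80.1, 64.9, 60.9 and 60.4 among all regions, in that order. When each library was centred on its median, no *HsfA1* region was called. *HsfA1e* then had a log2 fold change of 0.26 (SE 0.11, limma adjusted p = 0.0943), with an unadjusted p of 0.0502, and the other 3 had higher p values. Centring together with the replicate number as a block, or without *Cnr* replicate 2, gave *HsfA1e* a limma adjusted p of 0.0301 and 0.00949 with a fold still under 1.5. Centring changed the calls over all regions to 432 higher (5.4%) and 621 lower (7.76%), against 2014 higher and 153 lower without it. Centring removes any difference in overall level between libraries. The study measured a higher overall m6A level in mRNA of *Cnr* fruit by mass spectrometry. How far the shift reflects that level was not tested.

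Single lists moved the call. Without *Cnr* replicate 3, *HsfA1e* had a log2 fold change of 0.46 (limma adjusted p = 0.0445) and was no longer called. The other 3 adjusted p values under 0.05 did not hold in every fit that left out 1 list. That of *HsfA1a* lay between 0.000934 and 0.0715, and was over 0.05 without *Cnr* replicate 1. That of *HsfA1b* lay between 0.000236 and 0.149, and was over 0.05 without *Cnr* replicate 1 or 3 or WT 42 DPA replicate 1 or 3. That of *HsfA1c* was over 0.05 without *Cnr* replicate 1 or 3 or WT 42 DPA replicate 2 or 3, and its log2 fold change was 0.29 without *Cnr* replicate 3 (limma adjusted p = 0.228) and 0.36 without WT 42 DPA replicate 2 (0.13). Without *Cnr* replicate 2, *HsfA1e* was at 0.87 (adjusted p = 2.29e-08) and the shared *HsfA1c* peak was called as well, at 0.66 (adjusted p = 2.33e-05), while 36.6% of all regions were then called higher and their median was 0.45. The fit gave the same SE, 0.17, for every region, since it pooled the spread over all of them. The SDs above show that *HsfA1e* and *HsfA1c* varied more between *Cnr* replicates than *HsfA1a* did. Over all 18 alternatives the adjusted p of *HsfA1e* ranged between 2.29e-08 and 0.0943. An exact two-sided permutation test of the 3 against 3 values gave p = 0.1 for *HsfA1a*, *HsfA1b* and *HsfA1e*, the smallest that 3 against 3 allow, and 0.2 for *HsfA1c*. This test did not pair the lists by replicate number.

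**Figure D4:**
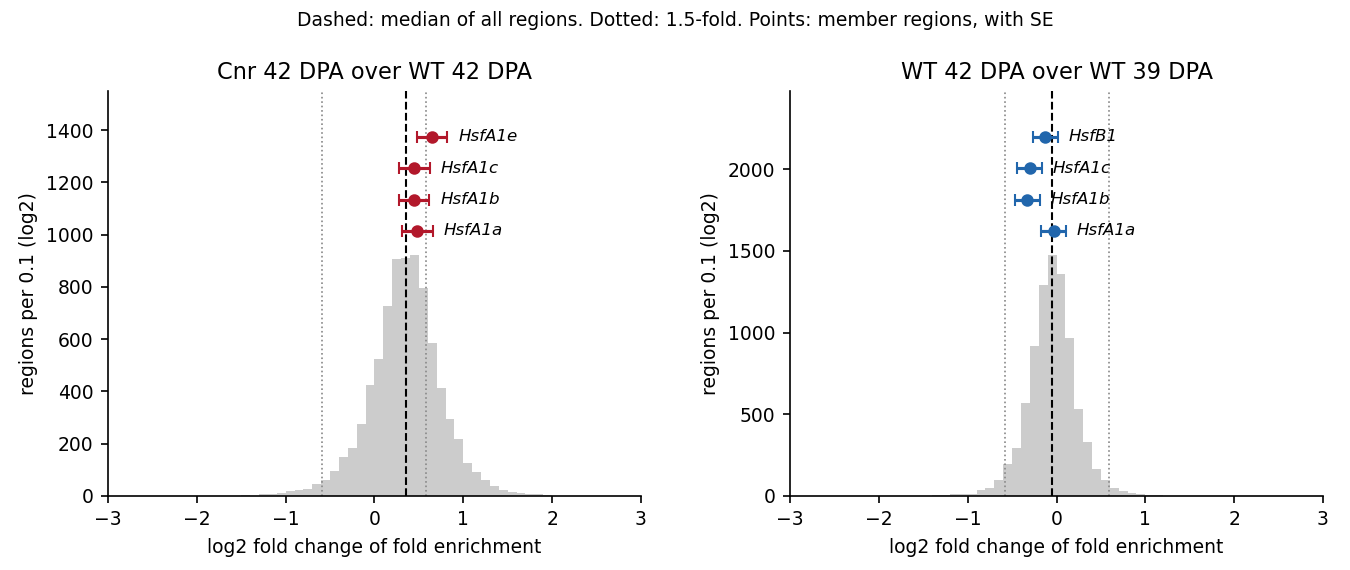
Log2 fold change of fold enrichment for the member regions (points, with SE) above the distribution over all tested regions (grey bars, regions per 0.1 log2), for *Cnr* over WT at 42 DPA (left, 8007 regions) and WT 42 DPA over WT 39 DPA (right, 8550 regions). On the left the 4 *HsfA1* regions lie to the right of the dashed median of 0.36 and only *HsfA1e* passes the dotted 1.5-fold line. On the right no member passes it.

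The comparison of WT fruit at 42 and 39 DPA follows the onset of ripening. The 4 member regions with a peak in all 6 lists were *HsfA1a*, *HsfA1b*, *HsfA1c* and *HsfB1*, and limma called none of them, against 4.55% called over 8550 regions, of which 132 were higher and 257 lower (182 and 178 after centring). *HsfA1b* and *HsfA1c* had an unadjusted p under 0.05. The log2 fold change was −0.33 for *HsfA1b* (SE 0.14, limma adjusted p = 0.0915) and −0.30 for *HsfA1c* (adjusted p = 0.127), against a median of −0.048 over all regions. *HsfA1a* was at −0.033, with a 95% interval of −0.31 to 0.24. The direction for *HsfA1a* turned when libraries were centred. For *HsfA1b* centring gave −0.27 with an adjusted p of 0.0466 and all WT 42 DPA values below all WT 39 DPA values, as in 19.9% of all regions after centring. Over its 19 alternatives the adjusted p lay between 0.0361 and 0.288. *HsfA1e* lacked a peak in 1 list, and with that list left out as missing its log2 fold change was 0.16 (limma adjusted p = 0.555).

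*HsfA1b* was the only *HsfA1* gene whose background was above the floor, so that IP signal and input could be taken apart. Its input at the summit was 1.57, 1.56 and 1.56 times the floor in *Cnr*, against 1.37, 1.41 and 1.38 at WT 42 DPA and 1.16, 1.21 and 1.21 at WT 39 DPA. The 3 groups did not overlap, in the order *Cnr*, WT 42 DPA, WT 39 DPA. The log2 difference in input was 0.17 for *Cnr* over WT at 42 DPA (SE 0.017, limma adjusted p = 0.000213) and 0.21 for WT 42 DPA over WT 39 DPA (SE 0.023, limma adjusted p = 0.000387). Neither reached 1.5-fold, so neither was called. In the input of the first comparison 10.2% of 3940 regions were called higher and 15.1% lower, and in 39.9% all *Cnr* values were above all WT values. In the second, 8.12% of 4510 regions were called higher and 6.3% lower, and in 39% all values at WT 42 DPA were above all values at WT 39 DPA. Input at a peak is here the local background of the caller, an indirect measure of transcript abundance around the peak. The stretch that this background covers was not checked. In these pools fewer cells that express a gene cannot be told apart from less RNA per cell.

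The IP signal of *HsfA1b* did not follow the same order. It was 13.2, 10.2 and 13.5 times the floor in *Cnr*, against 7.74, 9.18 and 7.08 at WT 42 DPA and 8.91, 7.80 and 9.22 at WT 39 DPA. *Cnr* was above both WT groups in all 3 lists (exact permutation test against WT 42 DPA, p = 0.1, the smallest possible), with a log2 difference of 0.62. Over all 8007 regions the IP signal had a median log2 difference of 0.37, and in 50.6% all *Cnr* values were above all WT 42 DPA values. For both WT groups together this share was not counted. WT 42 DPA and WT 39 DPA overlapped (log2 difference −0.12, against a median of −0.069 over all regions; exact permutation test, p = 0.4). The lower mean fold enrichment of *HsfA1b* at WT 42 DPA than at WT 39 DPA thus stood beside a higher input and overlapping IP signals.

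**Figure D5:**
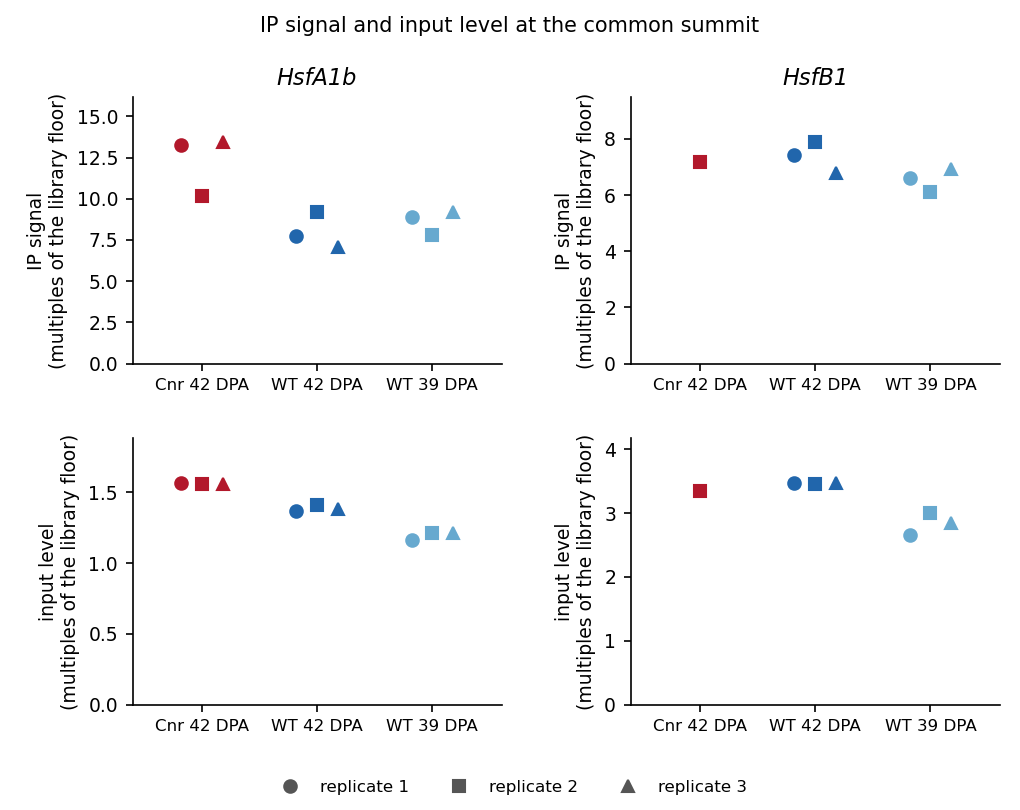
IP signal (top) and input level (bottom) at the shared summit, in multiples of the floor of each library (linear axes from 0), for *HsfA1b* (left) and *HsfB1* (right), with 1 symbol per replicate. The *HsfA1b* input forms 3 separate groups between 1.16 and 1.57, and *HsfB1* input is between 3.45 and 3.48 at WT 42 DPA and between 2.65 and 2.99 at WT 39 DPA.

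No list held a peak of *HsfA2*, the heat-induced partner of HsfA1, and no gene bounds of it appeared in the lists. *HsfA3*, which in Arabidopsis is activated by DREB2A during drought and heat, had none within its annotated span, chromosome 9 from 2443668 to 2448447 on the minus strand. A peak assigned to no gene lay 139 to 193 bp beyond its annotated 3′ end, between 2443225 and 2443529. It was in the 3 *Cnr* lists, with fold enrichments of 4.62, 4.14 and 4.92, in no WT 42 DPA list, and in WT 39 DPA replicate 1 with 2.61. Its 4 summits lay within 6 bp of each other. The input there was 1.32, 1.33 and 1.25 times the floor in *Cnr* and on the floor in the WT 39 DPA list. This peak was looked for after the member rule had been applied, is not counted as a peak of *HsfA3*, and the lists do not tell whether it lies on a longer *HsfA3* transcript. A peak in the 3 *Cnr* lists and no WT 42 DPA list was found for 5.51% of the regions of the series.

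*HsfA4a*, a class A activator, had a peak in *Cnr* only, with fold enrichments of 2.49, 2.24 and 2.76, a mean of 2.50 ± 0.26 (SD, n = 3). The peaks covered chromosome 3 from 679605 to 679838, with summits within 24 bp of each other and 875 to 899 bp from the 3′ end of the gene (675898 to 680606, plus strand). The background was on the floor in all 3 lists, and the IP number at the summit was 123 (95% exact Poisson interval 102 to 147), 102 (83.2 to 124) and 125 (104 to 149). The intervals cover counting error only. These were weak peaks, at percentiles of 5.38 to 7.82 of their lists.

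The *HsfA4a* pattern, a peak in the 3 *Cnr* lists and in no WT list, was shared by 364 regions, 3% of all. Their mean fold enrichment in *Cnr* had a median of 3.44 with quartiles of 2.90 and 4.22, above that of *HsfA4a*. In the WT lists the lowest fold enrichment listed for a summit on the floor was 1.51 to 1.54, and 99% of such summits were above a value that lay between 1.78 and 1.91 in the different lists. The level of *HsfA4a* in WT fruit is known only as having passed no peak call. *HsfA4c*, a second activator of the subclass, and *HsfA5*, which in tomato and Arabidopsis binds HsfA4 proteins and represses them, had no peak. The nearest peak to *HsfA5* (chromosome 12, 66980364 to 66984399, minus strand) was 758 to 875 bp away, in the neighbouring gene Solyc12g098530, in 5 lists.

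*HsfB1*, the class B factor that acts with HsfA1 as a co-activator and otherwise as a repressor, had weak peaks. Its input at the summit was higher than that of any class A gene with a peak. At the summit shared by the lists its fold enrichment was 2.14 in *Cnr* replicate 2, the only *Cnr* list with the peak, against 2.12, 2.28 and 1.95 at WT 42 DPA and 2.48, 2.04 and 2.44 at WT 39 DPA. The *Cnr* value lay within the range of both WT groups. The pattern of a peak in the 6 WT lists and in 1 *Cnr* list was shared by 302 regions, 2.49% of all. The peaks lay at percentiles of 6.27 to 13.6 of their lists.

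The input of *HsfB1* at that summit was 3.35 times the floor in *Cnr* replicate 2, against 3.48, 3.45 and 3.47 at WT 42 DPA and 2.65, 2.99 and 2.84 at WT 39 DPA. All values at WT 42 DPA were above all values at WT 39 DPA. With the highest summit of each list, 39% of 4510 regions separated this way in input and 43.4% the other way. These shares were not counted at the shared summit. The log2 difference for *HsfB1* was 0.30 (SE 0.046, limma adjusted p = 0.00198) and was not called, being under 1.5-fold. The IP signal was 7.41, 7.90 and 6.78 times the floor at WT 42 DPA, against 6.61, 6.12 and 6.94 at WT 39 DPA, and the groups overlapped (exact permutation test, p = 0.2). The fold enrichment, a log2 difference of −0.13, did not pass the test (limma adjusted p = 0.66). The peak held a further summit in WT 42 DPA replicates 1 and 3, 240 and 226 bp away, and in replicate 1 it was the higher by a small margin, with 2.13 against 2.12. Taking the highest summit of each list instead, the input of 1.96 times the floor at that summit entered the comparison and the log2 difference in input was 0.021 (limma adjusted p = 0.942). Over the 17 alternatives for this value the adjusted p lay between 0.00198 and 1. The shared summit was chosen after the values had been seen.

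The enrichment pattern of the 3 genes with a peak in every list was set against 7601 other regions over the 9 lists, each centred on its own mean. The region most like *HsfA1a* was that of Solyc10g085810 and Solyc10g085820, with a root mean square difference of 0.054 on the log2 scale, against a median of 0.22 over all regions. The region most like *HsfA1b* was that of Solyc02g077315 and Solyc02g077320 (0.051, median 0.23), and the one most like *HsfA1c* was that of Solyc05g048770 (0.065, median 0.26). Each match is the smallest of 7601 differences, so it lies below the median by the way it was found. None of the 3 was the closest match of another, since the smallest difference among them was 0.19.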

How the data were processed

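m6A-seq was measured in pericarp of *Cnr* at 42 DPA and of WT at 42 and 39 DPA, with 3 replicates of IP and input each. As the study's methods state, reads were trimmed with cutadapt 1.16 and Trimmomatic 0.30 and checked with FastQC 0.11.7. They were aligned with BWA to tomato genome SL3.0 with annotation ITAG3.2 and kept at a mapping quality of at least 13. Peaks were called per replicate, IP against input, with MACS 2.0.10 at a false discovery rate under 0.05 and annotated with PeakAnnotator 2.0. The deposited lists give, for each summit, the fold enrichment as a ratio, the −log10 p-value and the −log10 q-value. The names of the 2 −log10 columns were lost in 2 lists, where they were read by their place. The lists hold no read totals, and those the study gives per library were not used here.

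Starts were counted from 1. From the deposited fold enrichment and −log10 p-value, the whole IP number and the background were recovered as fold enrichment = (IP + 1)/(background + 1), with p the Poisson tail. For 99.9% of 92197 summits the IP number came within 0.1 of a whole number. The floor was the most frequent background of a library (tolerance 0.1). Peaks of the lists compared were merged when they shared at least 1 bp, and the highest summit per list was used. limma 3.58.1 (R 4.3.3) was fitted to log2 fold enrichment of regions with a peak in all 6 lists, and to log2 of background over floor where it was above the floor in all 6. This test stood in for the study's own differential tool. Permutation tests used scipy 1.17.1 under Python 3.11.15, and the fits and the recovery were tested on simulated data. The data simulated for the fits had independent noise, with no shift of whole libraries and no likeness of same-numbered lists. They do not tell how the calls fare under either. Poisson intervals are at 95% and cover counting error only.

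Gene names were paired with identifiers by the list of members; all 10 are named. Members, lists and tests were chosen with earlier results of these data known. A planned list of heat stress genes by description was left out, because no descriptions were at hand, and the gene ontology groups, the shared summit and the peak beyond *HsfA3* were chosen after seeing the data. No genome sequence was used, so no sequence is shown. Replicate numbers are shared between the groups. The deviations of same-numbered lists from their group means correlated over the tested regions with r of 0.18, 0.44 and 0.34 between *Cnr* and WT at 42 DPA, and 0.23, 0.34 and 0.085 between WT 42 and 39 DPA. By the rule that every pair must exceed 0.1, the numbers were taken to pair the lists of the first comparison. Those of the second were not taken as paired, because the lists numbered 3 fell short, at 0.085. The pairing rests on these r values alone. The main fits and the permutation tests did not use it, and the replicate block did. Lists of other numbers also exceeded 0.1 in the first comparison, with 0.19 for *Cnr* replicate 1 and WT replicate 3 and 0.23 for *Cnr* replicate 3 and WT replicate 1, both above the 0.18 of the lists numbered 1. Alternatives were library centring, the replicate block, leaving out each replicate, other thresholds, merging, summit and floor rules, and all 9 lists in 1 fit.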

Additional observations from a re-analysis of the deposited data

How the results depend on the processing

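Alternatives could be run for 5 of the 10 genes, *HsfA1a*, *HsfA1b*, *HsfA1c*, *HsfA1e* and *HsfB1*. Of their 204 values, 188 kept their direction and side of the call, which for values that were never called says nothing of their size. The change of *HsfA1a* in *Cnr*, 0.48, was 0.026 after centring without *Cnr* replicate 2. In *Cnr* against WT at 42 DPA, 2167 regions were called in enrichment, 1053 after centring, 4044 with no fold minimum, 703 with only regions above the floor, 1337 after centring without *Cnr* replicate 2 and 1073 after centring with the replicate block. Leaving out 1 list gave 1674 to 3143. The 1 member called, *HsfA1e*, became 0 in each setting with centring, with all 9 lists in 1 fit, where *HsfA1e* was not tested, and above the floor, where only *HsfA1b* was tested. It became 4 members with no fold minimum, and 0 to 2 when 1 list was left out. The replicate block left 2167 regions called and *HsfA1e* called (limma adjusted p = 0.00305), and changed no other member call. Between WT 42 and 39 DPA, where the numbers were not taken to pair the lists, 389 regions were called with the block and 389 without it. In input, 998 regions were called, 3239 with no fold minimum, then with 1 member. Between WT 42 and 39 DPA, 389 regions were called in enrichment, 1313 with no fold minimum and 99 above the floor. In input 650 were called, and 3556 with 1 member with no fold minimum. The enrichment change of *HsfA1a*, −0.033, turned to 0.023 after centring, with or without the block, and lay between −0.070 and 0.018 when 1 list was left out, turning without WT 39 DPA replicate 1. The input change of *HsfB1*, 0.021, turned to −0.11 and −0.12 without WT 42 DPA replicate 2 or 3 and −0.025 without WT 39 DPA replicate 1. Without WT 42 DPA replicate 1, whose highest summit is another, it was at 0.30 (limma adjusted p = 0.00905). For the other changes the cause was not tested. Fits without 1 list assume that the remaining lists of its group vary like the rest. Whether replicates shared a growing batch is not given in the sources used here.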

Other observations

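Groups of genes defined by deposited gene ontology terms, picked after the lists had been seen, give the surroundings of the Hsf genes. In enrichment, 25.2% of all regions were called higher and 1.91% lower in *Cnr* against WT at 42 DPA, with a median log2 change of 0.36. Of 9 tested regions of genes with heat shock protein binding, a term of DnaJ-type co-chaperones, 1 was called higher and 1 lower, with a median of 0.10. Of 15 regions of genes with unfolded protein binding, 1 was called higher and 1 lower, with a median of 0.096. Of 27 regions of genes with response to stress, 4 were called higher and none lower, with a median of 0.27. Of 52 regions of genes with the term protein folding, 15 (28.8%) were called higher and none lower, with a median of 0.34, close to the values over all regions. After centring, 1 of these was called higher and 3 lower, against 5.4% and 7.76% of all regions. Genes that carried the same pair of terms as the Hsf genes, transcription factor activity and nucleus, had 5 tested regions, too few to set against the share over all regions. Of these, 2 were called higher and none lower, none after centring, with a median of 0.40.

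In input, 10.2% of all regions above the floor were called higher and 15.1% lower in *Cnr* against WT at 42 DPA, with a median log2 change of −0.031. Of 30 protein folding regions, 12 were called lower and 1 higher, with a median of −0.39. The other chaperone terms had too few regions to set against that direction. Of 3 regions with heat shock protein binding, 1 was called higher and none lower, with a median of 0.073, and of 5 with unfolded protein binding, 2 were called higher and none lower, with a median of 0.12. Of 21 regions with response to stress, 5 were called higher and 7 lower, with a median of −0.19. Between WT 42 and 39 DPA, 3 of 34 protein folding regions (8.82%) were called higher in input and none lower, with a median of 0.14, against 8.12% higher, 6.3% lower and a median of −0.025 over all regions. The medians of the other chaperone and stress terms were negative. Heat shock protein binding had −0.24 (6 regions, 1 called higher and 1 lower) and unfolded protein binding −0.18 (7 regions, 1 higher and 1 lower). Response to stress had −0.059 (25 regions, 4 higher and 6 lower).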
